A study of Mus musculus with 4 samples.

Results

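The genes described here are 10 components of the canonical Wnt pathway, chosen by symbol from the 32592 genes of the deposited table: the co-receptor gene Lrp6, the destruction complex genes Apc and Gsk3b, the effector gene Ctnnb1 (beta-catenin), the TCF/LEF transcription factor genes Tcf7l1, Tcf7 and Lef1, and the target genes Axin2, Cdx1 and Sp5. All 10 had enough reads to be tested. Poly(A) messenger RNA was sequenced from the embryonic stem cell line CCE (mouse, strain 129/Sv), kept without feeders in serum medium with leukemia inhibitory factor. There were 4 libraries. In 2 of them, labelled knockdown, the cells had been infected with shRNAs against Eif4a2, an RNA helicase of translation (sheIF4A2-2 or sheIF4A2-3), and in 2, labelled control, with shLuc or shEV. All cells were under 1 µg/mL puromycin for 3 days and were collected on day 4.5, and the labels do not say which hairpin went into which library, so hairpin and replicate cannot be told apart. The labels name no separate cultures within a group, and p-values therefore cover only the spread among these libraries, which may be technical.

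In the canonical Wnt pathway, a Wnt ligand binds a Frizzled receptor together with LRP5 or LRP6, and this stops a cytoplasmic complex of AXIN, APC, GSK3 and casein kinase from marking beta-catenin for destruction. Beta-catenin that accumulates enters the nucleus and acts with TCF/LEF proteins on target genes, several of which encode feedback inhibitors. In mouse embryonic stem cells the pathway favours self-renewal, in large part by relieving the repression that TCF7L1 exerts on pluripotency genes, and beta-catenin has a second role at the membrane as a partner of E-cadherin. Much of the control of beta-catenin is on protein stability, which RNA levels do not show.

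The targeted gene goes against its label. Normalized counts of Eif4a2 were 752.5 and 814 under the knockdown label and 530.6 and 379 under the control label (log2 change 0.80, SE 0.15, limma adjusted p = 0.014), so each direction below compares 2 labels and does not follow a measured fall of Eif4a2. Recovered reads ranged from 4604200 (control 2) to 13681765 (control 1) per library. Embryonic stem cell markers were present in every library, and the 8 markers summed to between 7998 and 8315 in the libraries labelled knockdown and between 10563 and 11250 in those labelled control, and 4 of the 8 fell (12.4% of all genes tested fell and 10.5% rose). Of 15 fibroblast markers, the other cell type considered, Dcn, Lum and S100a4 had no read in any library. Of the 10 tested, 3 rose (Col1a1, Col5a1 and Pdgfrb) and 1 fell (Fn1), with a median log2 change of 0.51. That median includes Col6a1 (7 and 1 reads in the controls against 14 and 11) and Col1a2 (7 and 5 against 19 and 25). Both had enough reads to be tested only through the libraries labelled knockdown, where they were higher. The list summed to 1046 to 1050 against 1234 to 1341, a sum made up mostly of Fn1 (789.4 ± 24.7 against 1027 ± 87.9, SD, n = 2 each), so that sum and median point opposite ways. The part of these shifts in the results below was not tested. In bulk RNA, fewer cells of a type and less RNA per cell cannot be told apart.

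Of the 10 genes, only Apc passed the test in the fit of all 4 libraries. It fell 1.54-fold in the libraries labelled knockdown, while the other 9, including beta-catenin, all 3 TCF/LEF factors and all 3 targets, did not pass. Normalized counts are reads scaled to the authors' effective library size, and folds are on the scale of log2(normalized count + 1). The test was limma on log2(normalized count + 1) across 14890 genes, with genes called at a Benjamini-Hochberg adjusted p below 0.05. By that rule 23.0% of all genes tested were called, 10.5% as higher and 12.4% as lower, so 1 called of 10 is not above the background. At an unadjusted p below 0.05, limma gave 1 rise (Cdx1) and 1 fall (Apc), beside 38.8% of all genes tested (18.6% higher, 20.2% lower). Both edgeR and DESeq2 called 1 of the 10, a fall, beside 25.1% of all genes in edgeR (12.0% higher, 13.1% lower) and 14.9% in DESeq2 (6.49% higher, 8.41% lower). No overlap between groups was seen for 4 of the 10, Apc, Cdx1, Ctnnb1 and Gsk3b, against 66.8% of all genes tested. The median log2 change of the 10 was 0.01, beside -0.01 over all genes tested. Without knockdown 1 or knockdown 2 the number called stayed at 1 (7.68% and 4.39% of all genes tested), without control 1 it was 3 (51.9%), and without control 2 it was 5 (45.7%). With the replicate number as a block it was 1 (31.1%). A fit that leaves out a control library takes its spread from the knockdown pair alone, which lay closer together (median absolute log2 difference 0.0955, against 0.198 between the controls).

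**Figure D1:**
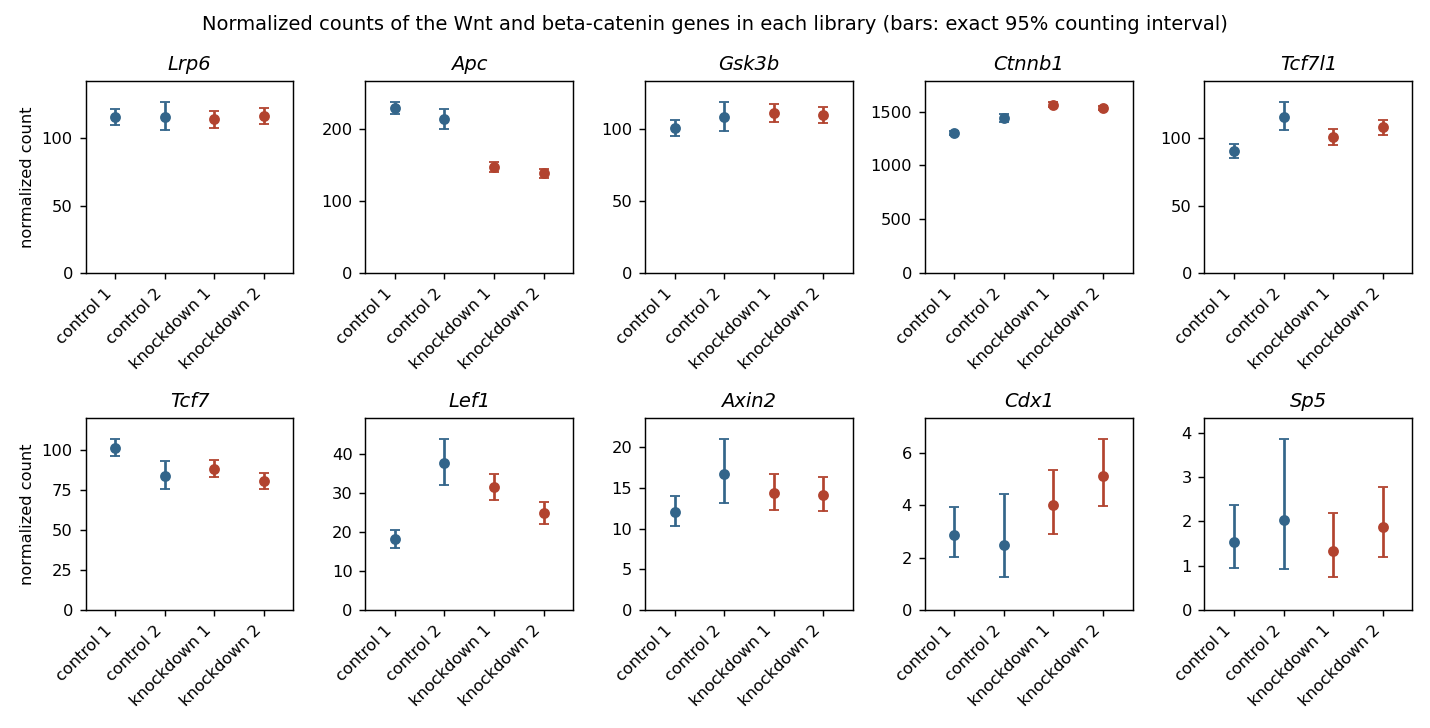
Normalized count (vertical axis, from 0) of each of the 10 genes in control 1 and 2 (blue) and knockdown 1 and 2 (red); points are single libraries and bars the exact 95% counting interval. Apc is the gene whose knockdown-labelled libraries (147.6 and 138.9) sit far below the controls (229.4 and 213.8), and Lef1 the one whose 2 controls lie farthest apart relative to their level (18 and 37.6).

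Per kilobase of annotated exon, the scale on which genes can be set beside each other, the levels ran over a wide range. Ctnnb1 was highest at 250.8 to 300.9 normalized counts per kb over the 4 libraries, with a mean above 99.1% of all genes tested. Tcf7 (30.8 to 38.7) and Tcf7l1 (23.1 to 29.6) came next, with means above 87.2% and 83.5% of the genes tested. Apc (8.62 to 14.2) and Gsk3b (10.2 to 11.3) overlapped, and Lrp6 lay just below at 8.33 to 8.52. Lef1 (2.05 to 4.27), Axin2 (2.19 to 3.04) and Cdx1 (1.42 to 2.94) overlapped each other, and Sp5 was lowest at 0.634 to 0.970, with a mean above 12.5% of the genes tested. The effector and 2 of its DNA-binding partners were thus abundant, and the 3 targets were among the low genes. Exon length was the union over all annotated isoforms, so a gene with long minor isoforms is placed too low.

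Lrp6 encodes the co-receptor that passes the Wnt signal from Frizzled to the cytoplasm. It was at 113.8 and 116.5 normalized counts in knockdown 1 and 2 and at 115.3 and 115.9 in control 1 and 2. The 4 libraries were nearly level and the groups overlapped. The log2 change was -0.01 (95% interval -0.19 to 0.18, limma adjusted p = 0.971), the narrowest interval of the 10. Lrp6 (ENSMUSG00000030201) maps to GRCm38 chromosome 6, 134446476 to 134566965, minus strand.

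Apc encodes a component of the destruction complex and is the gene lost in most colorectal tumours. It was at 147.6 and 138.9 normalized counts in knockdown 1 and 2, from 1663 and 1784 reads, and at 229.4 and 213.8 in control 1 and 2, from 3117 and 945 reads. Both knockdown-labelled libraries lay below both controls, and the 2 libraries of each group were close. The means were 143.3 ± 6.17 and 221.6 ± 11 (SD, n = 2 each), a log2 change of -0.63 (SE 0.08, 95% interval -0.82 to -0.43, limma adjusted p = 0.00571). For Apc the authors' deposited table gives -0.63 as the log2 fold change and 0.00114 as the adjusted p. The call held in each of the 17 alternative settings, and the log2 change lay between -0.68 and -0.58 when any 1 library was left out and at -0.50 with library size as the only scaling, which by itself raised the median of all genes by 0.11. Apc (ENSMUSG00000005871) maps to GRCm38 chromosome 18, 34220924 to 34322552, plus strand, and its exons span 16116 bases with all isoforms joined.

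Gene GC content moved with the change across all genes of these libraries, and the GC content of Apc, 44.3%, puts it in group 3 of 10 equal groups of genes ordered from low to high GC, whose median log2 change was -0.08. Gsk3b, Lef1 and Lrp6 are in that same group with log2 changes of 0.08, 0.09 and -0.01. After each library was centred within the 10 groups, the log2 change of Apc was -0.56 (limma adjusted p = 0.00987).

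Gsk3b encodes the kinase that phosphorylates beta-catenin in the complex. It was at 111.1 and 109.4 normalized counts in knockdown 1 and 2 and at 100.4 and 108.2 in control 1 and 2. The groups did not overlap, but knockdown 2 and control 2 were nearly the same. The log2 change was 0.08 (95% interval -0.12 to 0.28, limma adjusted p = 0.524). Gsk3b (ENSMUSG00000022812) maps to GRCm38 chromosome 16, 38089001 to 38246084, plus strand. Per kb of exon, Apc stood above Gsk3b in control 1 and 2 (14.2 and 13.3 against 10.2 and 11) and below it in knockdown 1 and 2 (9.16 and 8.62 against 11.3 and 11.1). That crossing depends on the exon lengths, 16116 and 9831 bases. Without length normalization Apc was above Gsk3b in every library (147.6 and 138.9 against 111.1 and 109.4 in knockdown 1 and 2).

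Ctnnb1 was at 1562 and 1533 normalized counts in knockdown 1 and 2 and at 1302 and 1439 in control 1 and 2. Both knockdown-labelled libraries were higher than both controls, and control 1 was the lowest. The means were 1548 ± 20.3 and 1371 ± 96.5 (SD, n = 2 each), and the log2 change of 0.18 (95% interval -0.04 to 0.40) did not pass (limma adjusted p = 0.206). It passed with library size as the only scaling (log2 change 0.30, limma adjusted p = 0.0357; 21.1% of all genes tested were called there) and without control 2 (log2 change 0.25, limma adjusted p = 0.000141). As a ratio, the interval runs from 0.970 to 1.32. Ctnnb1 (ENSMUSG00000006932) maps to GRCm38 chromosome 9, 120929216 to 120960507, plus strand.

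**Figure D2:**
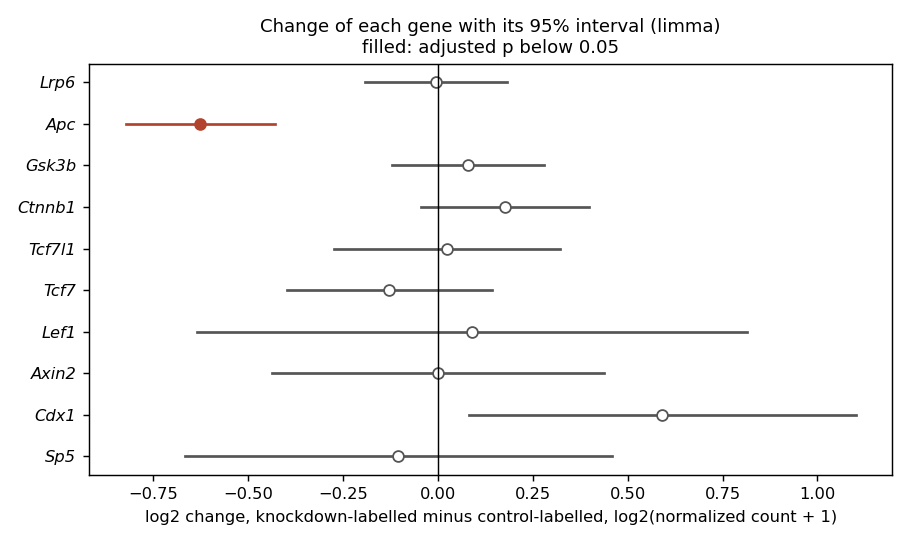
Log2 change (horizontal axis, knockdown-labelled minus control-labelled, on log2(normalized count + 1)) of each gene with its 95% interval from limma; the filled point passed at an adjusted p below 0.05. Apc lies at -0.63, and the intervals of the other genes except Cdx1 include 0.

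The TCF/LEF family binds DNA for the pathway through a shared HMG box. TCF7L1 acts chiefly as a repressor in embryonic stem cells, and TCF7 and LEF1 chiefly as activators when bound by beta-catenin. Tcf7l1 was at 100.9 and 108 normalized counts in knockdown 1 and 2 and at 90.6 and 116.1 in control 1 and 2. The 2 controls enclosed both knockdown-labelled libraries, and the log2 change was 0.02 (95% interval -0.27 to 0.32, limma adjusted p = 0.903). Its direction turned with the library left out and with GC centring: it was -0.024 without knockdown 2 (limma adjusted p = 0.965), -0.15 without control 1 (limma adjusted p = 0.0782), 0.20 without control 2 (limma adjusted p = 0.0215) and -0.19 with GC centring (limma adjusted p = 0.256). Tcf7l1 (ENSMUSG00000055799) maps to GRCm38 chromosome 6, 72626378 to 72789254, minus strand.

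Tcf7 was at 88.6 and 80.8 normalized counts in knockdown 1 and 2 and at 101.6 and 84.2 in control 1 and 2. Control 1 was the highest and control 2 lay between the knockdown-labelled libraries, so the groups overlapped. The log2 change was -0.13 (95% interval -0.40 to 0.14, limma adjusted p = 0.453). Without control 2 it was -0.26 (limma adjusted p = 0.00315), and without control 1 it was 0.0076 (limma adjusted p = 0.945). Tcf7 (ENSMUSG00000000782) maps to GRCm38 chromosome 11, 52252371 to 52283014, minus strand.

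Lef1, an activating family member that is itself a target of the pathway, varied most. It was at 31.4 and 24.7 normalized counts in knockdown 1 and 2, from 354 and 317 reads, and at 18 and 37.6 in control 1 and 2, from 245 and 166 reads. The 2 controls were the lowest and the highest library, with both knockdown-labelled libraries between them. Control 2 was 2.08 times control 1 (exact 95% interval 1.70 to 2.55, counting error only), and 98.1% of all genes tested differed less between the controls. The group means were 28.1 ± 4.77 and 27.8 ± 13.8 (SD, n = 2 each), with a log2 change of 0.09 (95% interval -0.63 to 0.81, limma adjusted p = 0.852). The sign turned with the library left out: the change was -0.077 without knockdown 1 (limma adjusted p = 0.922), -0.42 without control 1 (limma adjusted p = 0.000979) and 0.60 without control 2 (limma adjusted p = 1.94e-05). Lef1 (ENSMUSG00000027985) maps to GRCm38 chromosome 3, 131110471 to 131224356, plus strand.

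The 2 controls also differed beyond counting error for Axin2, Tcf7, Tcf7l1 and Ctnnb1. Control 2 over control 1 was 1.39 for Axin2 (exact 95% interval 1.04 to 1.84), 1.28 for Tcf7l1 (1.15 to 1.42), 1.10 for Ctnnb1 (1.07 to 1.14) and 0.828 for Tcf7 (0.737 to 0.929). The intervals of Apc, Gsk3b, Lrp6, Cdx1 and Sp5 included 1. For 7 of the 10 genes the controls were farther apart than the knockdown-labelled libraries, as they were for 70.3% of all genes tested. Whether this spread comes from the 2 control hairpins, the cultures or the libraries was not tested.

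**Figure D3:**
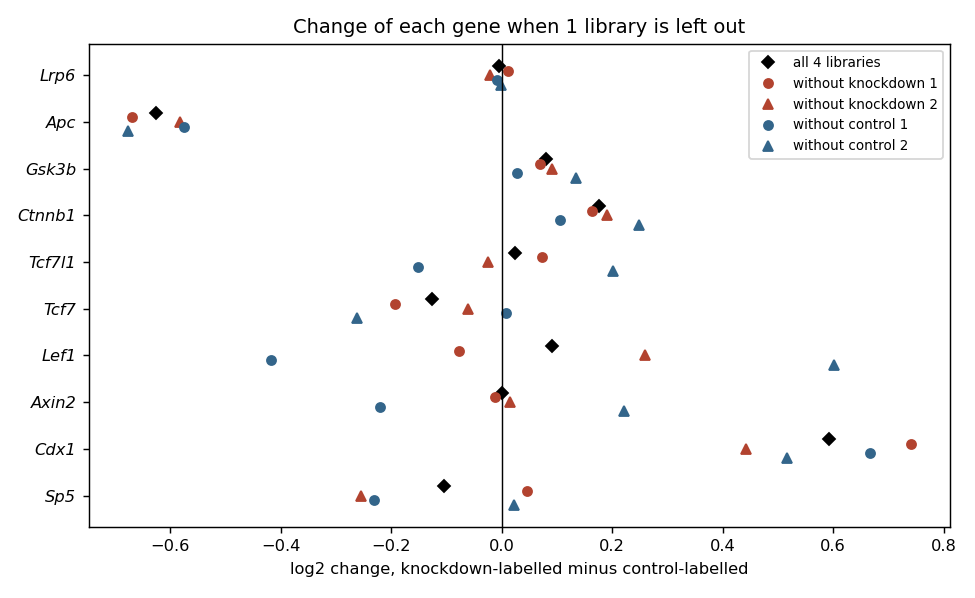
Log2 change (horizontal axis) of each gene in the fit of all 4 libraries (diamonds) and with each library left out in turn (red, a knockdown-labelled library left out; blue, a control). Apc stays between -0.68 and -0.58, whereas Lef1 ranges from -0.42 to 0.60.

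With Tcf7l2, the remaining family member, added, the family's make-up could be followed as shares of the summed level per kb of exon. Tcf7 made up 52.0% and 48.7% in the pair labelled knockdown, against 58.5% (control 1) and 47.7% (control 2). Tcf7l1 made up 39.6% and 43.5% against 34.9% and 44.0%. Control 1 thus had the largest share of Tcf7 and the smallest of Tcf7l1, and the groups overlapped for both. Lef1 held 5.51% and 4.44% against 3.10% and 6.35%, and Tcf7l2 2.93% and 3.35% against 3.52% and 1.99%. The summed level of the family was close to even, at 64.9 and 63.2 normalized counts per kb in the pair labelled knockdown, against 66.2 and 67.3 in the controls. Without length normalization Tcf7l1 rather than Tcf7 had the larger mean share in both groups (44.5% against 36.1% in the libraries labelled knockdown, 42.9% against 38.9% in those labelled control), the exon lengths being 3924 and 2625 bases. In control 1 Tcf7 had the larger share on that scale too (44.1% against 39.3%).

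**Figure D4:**
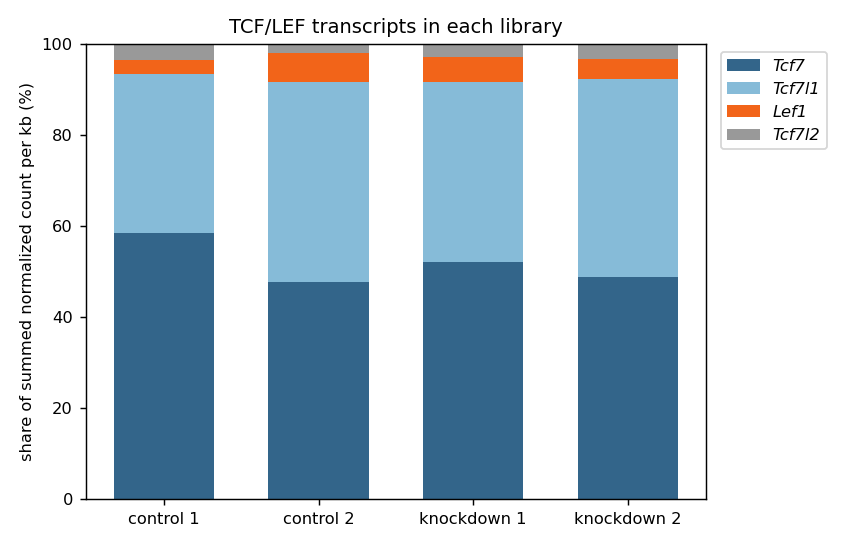
Share of each TCF/LEF gene (vertical axis, percent of the family's summed normalized count per kb of exon) in each library. Tcf7 and Tcf7l1 together fill most of every bar, and Lef1 is between 3.10% (control 1) and 6.35% (control 2).

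Axin2, Cdx1 and Sp5 are genes that beta-catenin and TCF/LEF proteins act on. Axin2 encodes a feedback scaffold of the destruction complex and is widely used as a readout of the pathway. It was at 14.4 and 14.1 normalized counts in knockdown 1 and 2 and at 12.1 and 16.7 in control 1 and 2. The controls enclosed the knockdown-labelled libraries, and the log2 change was 0.0008 (95% interval -0.44 to 0.44, limma adjusted p = 0.998). An equal level is not shown by this: as a ratio, the interval runs from 0.739 to 1.35. Axin2 (ENSMUSG00000000142) maps to GRCm38 chromosome 11, 108920349 to 108950783, plus strand.

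Cdx1, a caudal-type homeobox gene of the posterior embryo and the intestine, was low in every library. It was at 4 and 5.14 normalized counts in knockdown 1 and 2, from 45 and 66 reads, and at 2.87 and 2.49 in control 1 and 2, from 39 and 11 reads. Both knockdown-labelled libraries were above both controls, but the exact 95% counting interval of control 2, 1.24 to 4.45, reached past knockdown 1. The log2 change was 0.59 (SE 0.22, 95% interval 0.08 to 1.10) and did not pass over all genes (limma adjusted p = 0.0884). It passed without control 1 (log2 change 0.67, limma adjusted p = 0.00896), and after GC centring it was 0.38 (limma adjusted p = 0.225), Cdx1 being in the highest GC group at 62.1%, whose median log2 change was 0.19. For Cdx1 the authors' deposited table gives 0.73 as the log2 fold change and 0.148 as the adjusted p. Cdx1 (ENSMUSG00000024619) maps to GRCm38 chromosome 18, 61018862 to 61036199, minus strand.

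Sp5, a zinc finger factor of the SP family that is induced by Wnt signalling in many tissues, was the lowest of the 10. Knockdown 1 had 15 reads, knockdown 2 had 24, control 1 had 21 and control 2 had 9, or 1.33 and 1.87 against 1.55 and 2.04 normalized counts. The groups overlapped and the log2 change was -0.10 (95% interval -0.67 to 0.46, limma adjusted p = 0.781). At this depth the 95% counting interval of control 2 alone ran from 0.931 to 3.87, wide enough to hold all 4 libraries, so the change is imprecise. Sp5 (ENSMUSG00000075304) maps to GRCm38 chromosome 2, 70474923 to 70477729, plus strand.

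The start-site sequences of 7 of the 10 genes were searched for the TCF/LEF motif, to show how Sp5 differs from Axin2 there. Those of Apc, Lrp6 and the target gene Cdx1 were not searched. Each window ran from 250 bases before to 50 after an annotated start (RefSeq, GRCm38.p6), and the motif was CTTTGAA or CTTTGAT on either strand; its core CTTTG, which the motif contains, was counted separately. Among the windows of the 7 genes, the motif was found in that of Sp5 alone, where it starts 104 bases before the transcript, and 8.65% of all 32851 windows held it. Over whole windows, Sp5 had 5 cores, Lef1 1 to 3 in its windows, and Tcf7l1 and Gsk3b 1 each. Ctnnb1, Tcf7 and Axin2 had 0. The 250 bases before the start of Sp5 (chr2:70474673-70474922, plus strand) held 4 cores, of which 1 is part of the motif, and those before the start of Axin2 (chr11:108920099-108920348, plus strand) held none. They are printed 5′ to 3′ with the motif and cores in capitals; 53.9% of all windows held a core.
Sp5: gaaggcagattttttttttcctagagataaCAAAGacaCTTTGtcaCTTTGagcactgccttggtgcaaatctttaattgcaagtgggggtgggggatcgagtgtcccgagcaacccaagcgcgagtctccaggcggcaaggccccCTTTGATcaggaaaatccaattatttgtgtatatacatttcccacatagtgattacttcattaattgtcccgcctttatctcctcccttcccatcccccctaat
Axin2: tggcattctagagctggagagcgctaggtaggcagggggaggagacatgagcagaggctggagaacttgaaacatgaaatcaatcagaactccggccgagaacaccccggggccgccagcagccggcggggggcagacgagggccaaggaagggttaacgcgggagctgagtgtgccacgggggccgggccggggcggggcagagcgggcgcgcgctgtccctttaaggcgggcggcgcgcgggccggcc
The motif's presence is a description of these letters, and neither gene passed the test.

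Around the 10 genes, a further 118 genes of the pathway and its partners were listed by role, of which 96 were tested. Of these 14 rose, 11 fell and 71 did not pass, which makes 26.0% called beside 23.0% of all genes tested, and their median log2 change was 0.11 beside -0.01. With 1 library left out the number called moved widely, as it did over all genes tested. The counts per role in those fits, given below, are to be read beside the shares of all genes called in them, given above for the 10 genes. Medians by role ran from -0.14 for genes that TCF7L1 represses to 0.64 for ligands.

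**Figure D5:**
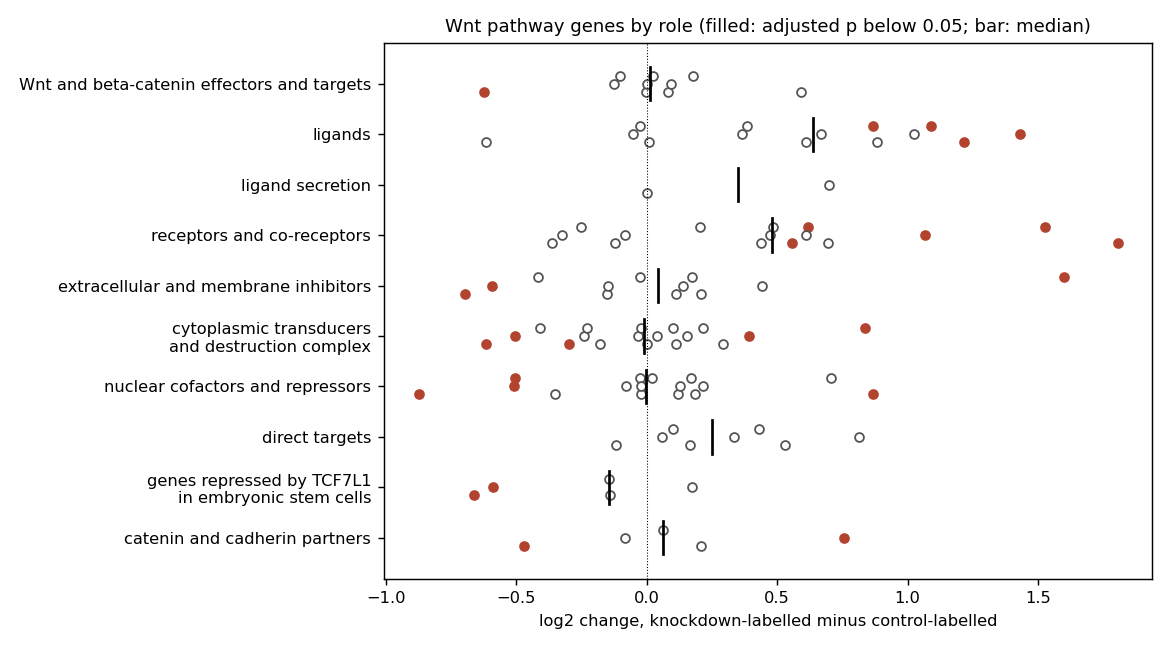
Log2 change (horizontal axis) of the 10 genes (top line) and of the other tested Wnt pathway genes by role; filled points passed at an adjusted p below 0.05 and black bars are medians. Ligands (median 0.64) and receptors (median 0.48) lie mostly to the right of 0, and the called genes of the cytoplasmic and nuclear roles lie on both sides.

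Of 23 ligand genes (Wnt and R-spondin genes), 14 had enough reads, and 4 rose, 0 fell and 10 did not pass in limma (median 0.64). Over all genes tested, 10.5% rose and 12.4% fell. Among the 4 is Rspo4, with 12 and 0 reads in the controls against 27 and 39 in the libraries labelled knockdown. It was tested because of its reads in the libraries labelled knockdown. For Wnt10a, Wnt4 and Wnt5b control 2 also fell short of the filter (3, 1 and 3 reads). The controls by themselves would not have passed these genes either, and Wnt4 and Wnt5b were not called. The count of rises (Rspo4 and Wnt10a) and the median thus include genes tested through the libraries labelled knockdown, and for these genes neither is support for a rise. At an unadjusted p below 0.05, 7 of the 14 were higher and 0 lower, beside 18.6% of all genes higher and 20.2% lower. Rises called numbered 4 in edgeR and 2 in DESeq2, beside 12.0% and 6.49% of all genes. Wnt7b rose 2.13-fold, with 63 and 14 reads in the controls and 97 and 129 in the libraries labelled knockdown. Wnt10a rose 2.33-fold (15 and 3 reads against 32 and 51) and Wnt6 1.82-fold (93 and 27 against 123 and 187). All 3 were low, and all 3 are in the highest GC group. Without knockdown 2 none of the 3 passed (limma adjusted p = 0.146 for Wnt7b, 0.181 for Wnt10a and 0.293 for Wnt6), and without knockdown 1 neither Wnt7b (limma adjusted p = 0.0535) nor Wnt6 (limma adjusted p = 0.0547) did. Wnt10a did not pass in DESeq2 (adjusted p = 0.0542), nor Wnt6 after thinning to equal totals (limma adjusted p = 0.074). Without knockdown 1, 2 ligand genes were called, without knockdown 2 0, without control 1 10 and without control 2 5. Of the secretion genes, Wls, the carrier of Wnt proteins, was at 10.2 ± 1.99 against 5.95 ± 1.69 (SD, n = 2 each) and did not pass (limma adjusted p = 0.073; 4.6e-06 without control 1 and 0.0386 without control 2), and Porcn, the Wnt acyltransferase, was level at 37.6 ± 2.55 against 37.8 ± 5.45.

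Of 17 receptor and co-receptor genes beside Lrp6, 16 were tested, and 5 rose, 0 fell and 11 did not pass in limma (median 0.48). By the same rule 10.5% of all genes rose and 12.4% fell. At an unadjusted p below 0.05, 10 of the 16 were higher and 2 lower, beside 18.6% and 20.2% of all genes. After GC centring 4 of the 16 rose and 0 fell in limma, where 2879 genes were called in all (1354 as rises), against 3418 without it (1567 as rises). Of the 16, 7 were then higher and 1 lower at an unadjusted p below 0.05, which 5463 genes in all met, against 5773. With the replicate number as a block as well, 6 rose and 1 fell, where 3685 genes were called in all (1842 as rises). In edgeR 6 rises were called (12.0% of all genes), and in DESeq2 5 rises and 1 fall (6.49% and 8.41%). With library size as the only scaling 8 rose and 0 fell, where 21.1% of all genes were called in either direction, 68.4% of them as rises. The Frizzled genes gave 2 of the 5 rises among 10 tested, and Fzd2 rose 3.49-fold, at 37.2 ± 1.19 against 9.95 ± 0.647. Fzd7, the receptor most often tied to embryonic stem cells, was at 239.5 ± 4.69 against 208 ± 5.35 and did not pass (limma adjusted p = 0.0968). It did pass with library size as the only scaling (limma adjusted p = 0.0247) and with upper-quartile scaling (limma adjusted p = 0.0434). It also passed when either control was left out. Lrp5, the paralog of Lrp6, rose 1.47-fold, with 65.5 ± 6.92 in the controls and 96.6 ± 1.79 in the libraries labelled knockdown (limma adjusted p = 0.0126), while Lrp6 did not pass; the difference between the paralogs was not tested. Lgr6, an R-spondin receptor, rose 2.09-fold from a low level (30 and 12 reads against 72 and 78). Neither Lrp5 nor Lgr6 passed without knockdown 1 (limma adjusted p = 0.06 and 0.108) or knockdown 2 (0.106 and 0.115), and 2 receptor genes were called without either knockdown library and 13 without either control.

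Among 12 tested genes of secreted and membrane inhibitors, 1 rose, 2 fell and 9 did not pass (median 0.04). Of all genes tested, 10.5% rose and 12.4% fell. Sfrp1, a secreted Wnt-binding protein, fell 1.51-fold, from 144.6 ± 18 to 95.1 ± 1.99, and Dkk3 1.62-fold, from 13.7 ± 1.82 to 8.05 ± 0.0417. Rnf43, a ubiquitin ligase that removes Frizzled from the surface, rose from 37 and 3 reads to 71 and 88, with a wide gap between the controls. Its log2 change was 1.60 (SE 0.36, limma adjusted p = 0.0242). Control 2 fell short of the filter, so the controls by themselves would not have passed Rnf43. The 1 rise counted in this role is thus of a gene tested through the group where it was high. Dkk3 did not pass without knockdown 1 (limma adjusted p = 0.179) or knockdown 2 (0.232), in DESeq2 (0.072), with library size only (0.0593), with no filter (0.0543) or thinned (0.101), and Rnf43 did not without knockdown 2 (0.0554). Inhibitor genes called numbered 2, 1, 4 and 5 in the 4 fits without 1 library, in the order knockdown 1, knockdown 2, control 1, control 2.

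In the cytoplasm, 2 of 18 tested transducer and destruction complex genes rose, 3 fell and 13 did not pass (median -0.01). The shares of all genes were 10.5% higher and 12.4% lower. Tnks, a tankyrase that promotes the breakdown of AXIN, fell 1.42-fold (106.2 ± 8.59 to 74.4 ± 4.19), and Csnk1e, a casein kinase of the pathway, 1.53-fold (163.8 ± 34.1 to 105.7 ± 13.2). Apc2, the paralog of Apc, went the other way and rose 1.78-fold, at a far lower level (35 and 13 reads against 61 and 77). Apc2 did not pass with GC centring (limma adjusted p = 0.0527), in DESeq2 (adjusted p = 0.114), with no filter on low values (limma adjusted p = 0.0602), after thinning (0.174), without knockdown 1 (limma adjusted p = 0.161) or without knockdown 2 (0.287). Csnk1e did not pass with library size only (limma adjusted p = 0.0721) or without knockdown 2 (0.142), nor did Tnks (0.16), and Tnks did not without knockdown 1 (0.0539). Genes called in this role numbered 1, 0, 8 and 11 in the same 4 fits.

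In the nucleus, 1 of 16 tested cofactor and repressor genes rose, 3 fell and 12 did not pass (median -0.0024). The shares of all genes were 10.5% higher and 12.4% lower. Ctbp2, a corepressor, fell 1.83-fold, with 178.8 ± 3.13 against 329.3 ± 28.4 in the controls (limma adjusted p = 0.0034), and Tle1, a Groucho-type corepressor that binds TCF proteins, 1.42-fold (44.8 ± 2.62 to 31.2 ± 0.0742). Bcl9l, a coactivator that binds beta-catenin, rose 1.82-fold (20 ± 3.6 to 37 ± 0.682). Tle1 did not pass without knockdown 1 (limma adjusted p = 0.149) or knockdown 2 (0.194), nor did Bcl9l without knockdown 2 (0.06), and the genes called numbered 2, 1, 8 and 9 in the same 4 fits.

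Among 14 further direct targets, 8 were tested, and 0 rose and 0 fell in limma (median 0.25). At an unadjusted p below 0.05, 1 of the 8 was higher (18.6% of all genes), and edgeR and DESeq2 each called 0 (25.1% and 14.9% of all genes). The 2 with the smallest p were Cd44, at 2.31 ± 0.625 against 0.925 ± 0.669 (SD, n = 2 each, limma adjusted p = 0.0965), and Fgf20, at 1.27 ± 0.411 against 0.56 ± 0.168 (limma adjusted p = 0.166). Fgf20 had 6 and 3 reads in the controls against 11 and 20 in the libraries labelled knockdown. It passed the filter through the group where it was high, so its values and its part in the median are no support for a rise. The same holds for Cd44, with 19 and 2 reads in the controls against 31 and 24, since control 2 fell short of the filter. The 6 not tested, genes of the primitive streak and the tail bud for the most part, had at most 11 reads in a library. Cd44 passed without control 1, in a fit whose only control had 2 reads of it, and Fgf20 passed without control 2, in a fit whose only control had 6. Target genes called numbered 0 and 0 without knockdown 1 and 2 and 2 in each of the fits without a control.

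Of 5 pluripotency genes that TCF7L1 is known to repress in embryonic stem cells, 2 fell and 3 did not pass in limma (median -0.14). Of all genes tested, 12.4% fell and 10.5% rose. Esrrb, an orphan nuclear receptor, fell 1.58-fold, from 1674 ± 61.2 to 1057 ± 4.97 (limma adjusted p = 0.00548), and Tfcp2l1 1.51-fold, from 882.1 ± 83.3 to 583.8 ± 9.85 (limma adjusted p = 0.00867), while Tcf7l1 itself did not pass. Esrrb is also one of the 8 stem cell markers whose sum was lower in the libraries labelled knockdown. Tfcp2l1 did not pass without knockdown 2 (limma adjusted p = 0.0677), and the fits without 1 library called 2, 1, 3 and 5 of these genes, in the order given for the inhibitors.

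Of the listed catenins and cadherins of the membrane, 5 were tested, and 1 rose, 1 fell and 3 did not pass (median 0.06). The shares of all genes were 10.5% higher and 12.4% lower. Cdh1, E-cadherin, rose 1.69-fold, with 541.2 ± 25 against 321.5 ± 39.6 in the controls (limma adjusted p = 0.00611). Ctnnd1, p120-catenin, which stabilises cadherins at the membrane, fell 1.39-fold, from 514.7 ± 61.6 to 369.9 ± 8.81 (limma adjusted p = 0.0196). Ctnnd1 did not pass with GC centring (limma adjusted p = 0.0633), without knockdown 1 (0.0806) or without knockdown 2 (0.151), and the genes called numbered 1, 1, 3 and 4 in the fits without knockdown 1, knockdown 2, control 1 and control 2. Without a variance trend in limma, the calls of Lrp5 (adjusted p = 0.0516), Sfrp1 (0.0513), Rnf43 (0.0602), Tnks (0.0579), Csnk1e (0.0922) and Ctnnd1 (0.0755) were lost, as was that of Eif4a2 (0.0581).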

How the data were processed

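The authors deposited a table of 32592 genes with a normalized signal per library and their own comparison. Per the submitters' processing notes, which give no roles, the tools were edgeR 3.26.8, HTSeq 0.11.2, SAMtools 1.9 and Bowtie2 2.3.4.3, and the build mm9. For the annotation release and strand setting, nothing was given in the sources used here. This deposited signal is counts scaled to CPM on an effective library size, as its values show: 100% of them are whole multiples of the worth of 1 read within 0.001. Per the file headers, the deposited comparison holds log2 fold changes, a likelihood ratio score, and p-values with adjusted values.

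Genes passing edgeR 4.0.16's filterByExpr on recovered reads (14890) were fitted with limma 3.58.1 in R 4.3.3, with a variance trend, on log2(signal + 1), so changes of low genes are understated. The filter asks for enough reads in 2 libraries, so a low gene can pass through the group where it is higher. Tests were two-sided; with 2 libraries against 2, the smallest p of an exact permutation test is 0.333. The fitting code was tested on simulated data, as a check of the code and not of any call. DESeq2 1.42.0, edgeR's quasi-likelihood test and other scalings, filters and designs were alternatives. Coordinates, exon lengths and GC content are from GENCODE M21 (GRCm38), matched by gene ID; none was converted from mm9. Counting intervals are exact and cover counting error only, since no molecular identifiers separate PCR copies. The members and lists were chosen with earlier results of these data known. Named beside the 10 genes and Eif4a2 are, per role, up to 3 called genes with the smallest p, or 2 where none was called. Of Frizzled genes only Fzd2 and Fzd7 are named, and of ligands Rspo4, Wnt4 and Wnt5b as well, for how they passed the filter.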

Additional observations from a re-analysis of the deposited data

How the results depend on the processing

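Replicate numbers are shared by the groups, but same-numbered libraries did not deviate together (r = 0.036 over genes). With the replicate number as a block, 4632 genes in all and 1 of the 10 were called, and no call among the 10 changed; of the other named genes, Wls (adjusted p = 0.0194) and Cd44 (adjusted p = 0.0284) passed. The block removes a residual degree of freedom from a design of 4 libraries. In all, 3418 genes were called, 2219 with DESeq2, 1932 without a variance trend and between 653 and 7724 with 1 library left out. With library size as the only scaling 68.4% of calls were rises, and 58.6% with upper-quartile scaling, against 45.8% as deposited. Of the 10 genes, 2 were called with library size only and 1 to 5 with 1 library left out. Of the other pathway genes 25 were called, 15 without a variance trend and 6 to 55 with 1 library left out. Signs turned, with no call, for Tcf7l1 with GC centring, without and with the block (-0.19), for Lef1 after thinning to equal totals (-0.025), and for Axin2 with GC centring, without and with the block (-0.10), and with a pseudocount of 3 (-0.0010). Lrp6 was at 0.0062 in edgeR, 0.014 in DESeq2, 0.0049 with TMM, 0.063 with upper-quartile scaling, 0.064 with GC centring (with and without the block), and 0.12 with library size only. Porcn was at 0.0294, 0.0271, 0.0093, 0.067 and 0.12 in the same order without GC centring. With 1 library left out, the log2 change ranged from -0.15 to 0.20 for Tcf7l1, -0.26 to 0.0076 for Tcf7, -0.42 to 0.60 for Lef1, -0.22 to 0.22 for Axin2, -0.25 to 0.045 for Sp5, -0.022 to 0.012 for Lrp6 and -0.14 to 0.14 for Porcn. Without length normalization the mean shares of Tcf7l1, Tcf7, Lef1 and Tcf7l2 were 44.5%, 36.1%, 11.9% and 7.52% in the libraries labelled knockdown, and those of Tcf7, Lef1 and Tcf7l2 38.9%, 11.4% and 6.79% in those labelled control. The cause of these differences was not tested. In control 2, the shallowest library, Sp5 had 9 reads and Cdx1 11, which limits the precision of both.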
